A study of Mus musculus with 2 samples.

Results

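The Notch pathway genes described here are 4 receptor genes (Notch1, Notch2, Notch3 and Notch4), the Jagged ligand genes Jag1 and Jag2, the nuclear partner gene Rbpj, and the target genes Hes1, Hey1 and Nrarp. They were taken by symbol from RPKM tables of mouse lung epithelial cells, and all 10 were listed in both tables, among 15113 genes listed in either. RPKM divides the reads of a gene by its length and by the library total, so levels of different genes can be set side by side.

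Notch receptors are membrane proteins that are cut by furin on the way to the cell surface. A Jagged or Delta-like ligand on a neighbouring cell triggers further cuts, by an ADAM protease and then by gamma-secretase, and the freed intracellular domain enters the nucleus. There it joins RBPJ and a Mastermind protein and switches on genes of the Hes and Hey repressor families and Nrarp. In the lung, Notch signalling is known for favouring secretory over ciliated and neuroendocrine fates in the airway, and it takes part in alveolar development.

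The study compared C57BL/6 mice aged 6 to 8 weeks, either wild type without a tumour or given 1000000 LLC cells carrying luciferase (LLC is the Lewis lung carcinoma line of mice) under the skin of the back, a model of spontaneous spread to the lung. From both, lung cells lacking CD45 and positive for SftpC, the surfactant protein of alveolar type 2 (AT2) cells, were sorted for sequencing, with 1 library per group. They are called the normal library and the LLC library here, and the latter holds sorted lung cells of the tumour-bearing mice. The sources used here do not give the number of mice behind a library or the way SftpC was detected. There was no replicate check of any difference between the libraries and no p-value is given. The intervals below are exact 95% intervals from read numbers and cover counting error only.

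The libraries corresponded to 5335352 reads (normal) and 5387114 reads (LLC). Markers were read for the sorted cell type and for others. The 10 AT2 markers summed to 123230 RPKM in the normal library and 86483 RPKM in the LLC library, with none at 0. Sftpc, at 94903 and 54968 RPKM, made up most of both sums, and the other 9 summed to 28327 and 31515 RPKM, with Sftpd at 3633 and 7410 RPKM. Lamp3 was lower in the LLC library, at 1116 and 570 RPKM, as was Etv5, at 341 and 162 RPKM. Of the 10, 4 were higher in the LLC library and 6 lower, where 46.2% of all genes at 1 RPKM or more in a library were lower. The 7 club cell markers summed to 32063 and 36273 RPKM, and the 8 ciliated cell markers to 397 and 315 RPKM. The 10 alveolar type 1 markers summed to 1608 and 2632 RPKM, and the 9 other than Ager to 460 and 960 RPKM. All 10 were higher in the LLC library, where 53.8% of all genes at 1 RPKM or more in a library were. By log2(RPKM + 1), 7 of them were at least 2-fold higher, where 9.38% of those genes were. Fibroblast markers summed to 148 and 853 RPKM over 10 genes. Col6a1 made up most of the normal sum, and the other 9 summed to 27.5 and 475 RPKM. Endothelial markers summed to 112 and 245 RPKM over 15 genes. Esam made up most of the normal sum, and the other 14 summed to 44.4 and 173 RPKM. Mural cell (pericyte and smooth muscle) markers summed to 3.40 and 15.3 RPKM over 9 genes. Basal cell markers summed to 18.7 and 28.8 RPKM over 4 genes. Of these, Krt14 was higher in the LLC library, from 2 and 75 reads, and Trp63 was lower, from 69 and 40 reads. The intervals of Krt5 and Ngfr include equal levels. Leukocyte markers summed to 95.0 and 89.4 RPKM over 11 genes, with Cd52, Cd3e and S100a8 at 0 in both libraries. Lcp1, an actin-bundling protein gene, made up most of both sums at 82.7 and 50.3 RPKM, and the other 10 summed to 12.3 and 39.1 RPKM. Among these the macrophage marker Cd68 was at 7.81 and 31.5 RPKM, a ratio of 4.03 (2.86 to 5.79), and C1qb had 0 and 32 reads. Ptprc, the CD45 gene, was below 1 RPKM with 12 and 2 reads, a ratio of 0.165 (0.0179 to 0.741). Laptm5 had 19 and 9 reads and S100a9 had 5 and 0, with intervals that include equal levels. Of the 5 leukocyte markers at 1 RPKM or more in a library, 2 were higher in the LLC library and 3 lower. Both libraries therefore held AT2 transcripts together with transcripts of other cell types. The fibroblast, mural, endothelial and alveolar type 1 sums and the macrophage markers Cd68 and C1qb were higher in the LLC library, and Ptprc was lower. In sorted bulk RNA, fewer cells of a type and less RNA per cell cannot be told apart.

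Every Notch member lay within 2-fold between the libraries on the log2(RPKM + 1) scale, the main measure used here. None of the 10 passed 2-fold in the upward direction (0 members), where 9.38% of the 12288 genes at 1 RPKM or more in a library did. Downward the number was also 0, where 6.53% of those genes passed. This scale understates differences of low genes. On the direct ratio of RPKM, Nrarp alone was past 2-fold, in the lower direction, so 1 of 10 members was at least 2-fold lower where 10.8% of all tested genes were, and 0 were at least 2-fold higher where 12.9% were. The median log2 ratio of the members was -0.16, and that of all tested genes was 0.06. Of the members, 6 had a log2 ratio below 0, where 46.2% of all tested genes did.

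The counting interval lay wholly below equal levels for 5 of the 10 members, namely Notch1, Notch2, Jag1, Rbpj and Nrarp, and wholly above it for 0. Among all tested genes with recovered reads these shares were 26.5% and 33.1%. The same 5 members were below under each of 3 other scalings of the libraries. Such an interval narrows with the reads of a gene, and it holds no variation between mice.

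**Figure D1:**
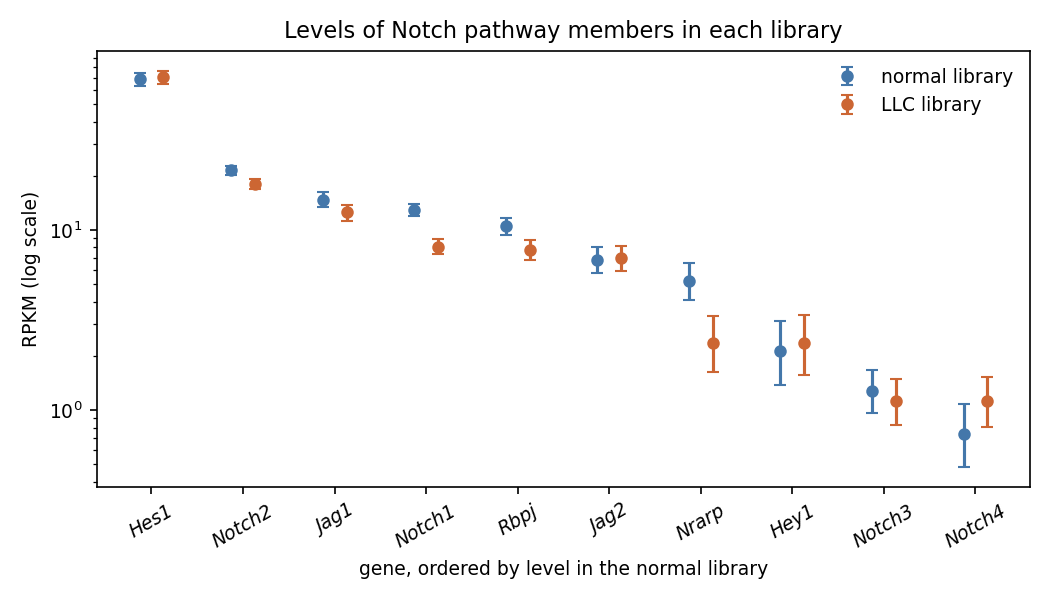
RPKM of each member (log axis) in the normal library (blue) and the LLC library (orange); points are single libraries and bars are exact 95% counting intervals. Hes1 was the highest member in both libraries, near 70 RPKM, and Notch3 and Notch4 were the lowest.

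The order of the members by RPKM was similar in the libraries. Hes1 came first, followed by Notch2 and Jag1. In the normal library Notch1, Rbpj, Jag2, Nrarp, Hey1, Notch3 and Notch4 followed in that order. In the LLC library only Notch3 and Notch4, at the bottom, were exchanged. By their counting intervals, neighbours that did not separate in the normal library were Jag1 and Notch1, Jag2 and Nrarp, Hey1 and Notch3, and Notch3 and Notch4. In the LLC library they were Notch1 and Rbpj, Rbpj and Jag2, Nrarp and Hey1, and Notch4 and Notch3. Nrarp thus stood apart from Hey1 in the normal library and at its level in the LLC library.

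Among the receptors, Notch2 (chromosome 3, 98013538 to 98150367 on mm10) had the highest level. It was at 21.4 RPKM in the normal library and 18.0 RPKM in the LLC library, from 1200 and 1018 reads, and was 1.19-fold lower in the latter, with an interval of 1.09 to 1.30. Notch1 (chromosome 2, 26457902 to 26503822) was at 12.9 and 8.09 RPKM, from 655 and 414 reads. It was 1.60-fold lower in the LLC library (1.41 to 1.81), the largest difference among the receptors. The level of Notch2 was accordingly 1.66 times that of Notch1 in the normal library and 2.22 times in the LLC library.

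The other receptor genes were scarce. Notch3 (chromosome 17, 32120820 to 32166896), the receptor best known from pericytes and smooth muscle, was at 1.27 RPKM in the normal library and 1.12 RPKM in the LLC library, from 54 and 48 reads. The ratio, LLC over normal, was 0.880, with an interval from 0.584 to 1.32 that spans equal levels. Mural markers were beside it at their summed 3.40 and 15.3 RPKM. Of these 9 markers, Rgs5, Cspg4, Acta2, Myh11 and Cnn1 had no reads in the normal library, and they had 2, 1, 3, 16 and 3 reads in the LLC library. For all of them but Myh11 the counting interval includes equal levels. Lmod1 had 18 reads in both libraries. The gene Pdgfrb, a pericyte receptor, was at 0.346 and 6.55 RPKM. Tagln had 1 and 27 reads, with an interval of 4.41 to 1095. Des had 24 and 41 reads, with an interval that includes equal levels. The part of mural RNA in the Notch3 value was not tested.

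Notch4 (chromosome 17, 34564286 to 34588543), a receptor best known from endothelium, was at 0.738 RPKM in the normal library and 1.12 RPKM in the LLC library, from 26 and 40 reads. The ratio of 1.52 had an interval of 0.907 to 2.60, which includes equal levels. Most endothelial markers were higher in the same library, with 10 of 14 tested past 2-fold upward, where 9.38% of all tested genes were, and 0 downward. Kdr, a VEGF receptor gene, was lower, at 6.41 and 3.40 RPKM, a ratio of 0.530 (0.411 to 0.679). Tek, the angiopoietin receptor gene, was at 3.71 and 3.15 RPKM, with an interval that includes equal levels. The summed level of the endothelial markers was 2.17 times that of the normal library, and Sox17 alone was at 0 in the normal library. The endothelial markers with the highest levels in the LLC library were Esam (68.1 and 71.8 RPKM), Ramp2 (8.60 and 28.5 RPKM) and Lyve1 (1.80 and 27.3 RPKM). The part of endothelial RNA in the Notch4 value was not tested.

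Summed over the 4 receptors, the level was 36.3 RPKM in the normal library and 28.3 RPKM in the LLC library, 1.28-fold lower. Notch2 made up 58.9% of the normal sum and 63.5% of the LLC sum, and Notch1 made up 35.6% and 28.6%. The shares of Notch3 were 3.51% and 3.96%, and those of Notch4 were 2.03% and 3.97%. Both libraries were therefore dominated by Notch2 and Notch1 transcripts.

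Jag1 (chromosome 2, 137081451 to 137116520), a Jagged ligand of the Notch receptors, was at 14.7 RPKM in the normal library and 12.5 RPKM in the LLC library, from 432 and 370 reads. It was 1.18-fold lower, and its interval of 1.02 to 1.36 came close to equal levels. Jag2 (chromosome 12, 112907803 to 112929812), the related ligand, was at 6.84 and 6.96 RPKM, from 148 and 152 reads. Its ratio was 1.02 (0.806 to 1.28), and the sign of its log2 ratio turned under all 3 other scalings. Jag1 was 2.15 times the level of Jag2 in the normal library and 1.80 times in the LLC library.

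The Delta-like ligands were lower than the Jagged ligands in both libraries. Dll1 was at 2.07 and 2.21 RPKM, from 38 and 41 reads, and Dll4, best known from endothelial tip cells, was at 1.30 and 1.40 RPKM, from 24 and 26 reads. Their intervals spanned equal levels. Dll3, an inhibitory family member, had 0 reads in the normal library and 2 in the LLC library, too few for a fold. Of the summed level of the 5 Jagged and Delta-like genes, 25.0 RPKM in the normal library and 23.2 RPKM in the LLC library, Jag1 made up 59.1% and 53.8% and Jag2 27.4% and 29.9%. Most of the ligand transcripts in both libraries were thus Jagged transcripts.

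Rbpj (chromosome 5, 53555779 to 53657445) encodes the DNA-binding protein through which the cleaved receptors act. It was at 10.5 RPKM in the normal library and 7.77 RPKM in the LLC library, from 312 and 234 reads. It was 1.35-fold lower (1.13 to 1.60). The genome holds 3 annotated Rbpj pseudogenes, and none of them was listed in either table. Whether reads were shared between them and Rbpj cannot be seen in these tables.

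**Figure D2:**
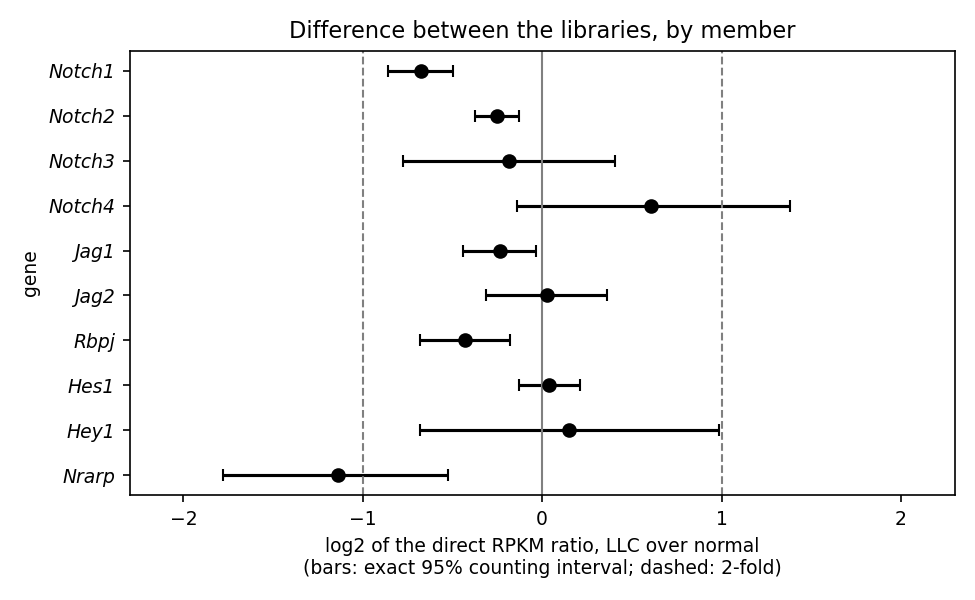
Log2 of the direct RPKM ratio, LLC over normal, for each member; bars are exact 95% counting intervals and dashed lines mark 2-fold. Nrarp had the lowest ratio, 0.454, and 5 members had an interval that includes equal levels.

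Of the 3 target genes, only Nrarp had a counting interval that left out equal levels. Hes1 (chromosome 16, 30065357 to 30067796), a basic helix-loop-helix repressor and the most widely used readout of Notch activity, was at 68.7 RPKM in the normal library and 70.7 RPKM in the LLC library, from 545 and 566 reads. Its ratio was 1.03, with an interval of 0.913 to 1.16, and the sign of its log2 ratio turned under all 3 other scalings. Neither direction was resolved. By level, Hes1 ranked 831 of the 13932 genes listed in the normal library and 881 of the 14283 in the LLC library.

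Hey1 (chromosome 3, 8663359 to 8667038), a related repressor with a strong part in blood vessels, was at 2.12 RPKM in the normal library and 2.35 RPKM in the LLC library. It had 25 and 28 reads, and its ratio was 1.11 (0.624 to 1.98). A difference within that interval was not detectable at this depth. Hes1 was 32.5 times the level of Hey1 in the normal library and 30.1 times in the LLC library.

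Nrarp (chromosome 2, 25180758 to 25183339) encodes a small ankyrin-repeat protein that is induced by Notch and in turn limits Notch signalling. It was at 5.21 RPKM in the normal library and 2.37 RPKM in the LLC library, from 72 and 33 reads. It was 2.20-fold lower, with an interval of 1.44 to 3.43, which includes values under 2-fold. On the log2(RPKM + 1) scale the ratio was -0.88. Hes1 was 13.2 times the level of Nrarp in the normal library and 29.9 times in the LLC library, so the targets differed in proportion between the libraries. The summed level of the 3 targets, 90.4% of it Hes1 in the normal library, was 76.0 and 75.4 RPKM.

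Immediate early genes, which respond rapidly to stimulation, were lower in the same library. All 13 on a list chosen with earlier results of these data known had a log2 ratio below 0, where 46.2% of all tested genes did. Of the 13, 8 were at least 2-fold lower, where 6.53% of all tested genes were. Their summed level was 6598 RPKM in the normal library and 2672 RPKM in the LLC library. Their part in the Nrarp and Notch1 values was not tested. In the genome annotation, antisense transcripts overlap exons of Notch1, Notch3 and Nrarp, and Gm42820 overlaps exons of Notch2 on the same strand. None of these transcripts is listed in the tables. Since the strand setting is not given, reads of either strand cannot be told apart for the first 3 genes, and reads that Gm42820 shares with Notch2 could not be told apart under any strand setting.

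The promoter of Nrarp is shown because Nrarp differed most among the members. The 250 bases before its annotated start lie at chr2:25180508-25180757 on the plus strand of GRCm38.p6, as given by RefSeq. Capitals mark an E-box, CACGTG, a sequence that Hey-type repressors are known to bind, and a CCAAT box.
Nrarp: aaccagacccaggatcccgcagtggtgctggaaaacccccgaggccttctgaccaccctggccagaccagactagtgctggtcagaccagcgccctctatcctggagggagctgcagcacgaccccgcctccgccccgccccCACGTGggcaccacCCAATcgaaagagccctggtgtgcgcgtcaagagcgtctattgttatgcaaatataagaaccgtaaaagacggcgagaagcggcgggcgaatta
The E-box begins 108 bases and the CCAAT box 94 bases before the start. Searched on both strands in the 250 upstream bases of all 32851 RefSeq promoter windows, CACGTG was present in 6.02% and CCAAT (or ATTGG) in 33.8%. The stretch was 61.2% G or C. A match describes letters only and shows no binding.

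The core of the sequence that RBPJ binds, TGGGAA, was searched on both strands in the window from 250 bases before to 50 bases after each start. It was present in 25.6% of all windows, and the longer form GTGGGAA, which contains it, in 6.38%. Windows were found for 8 of the 10 members, all but Hes1 and Hey1. Of these 8, only Rbpj held TGGGAA. Its sites are printed beside those of Hes5, Hes7 and Hey2, family members of the target genes whose windows hold the longer form. The windows of Hes6, another family member, and of the ligand genes Dll1 and Dll4 held no TGGGAA. Capitals mark the core, each line reads along the gene's own strand of GRCm38.p6, and the sequences are from RefSeq.
Rbpj, chr5:53590185-53590214, plus strand: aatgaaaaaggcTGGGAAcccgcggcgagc
Rbpj, chr5:53590269-53590298, plus strand: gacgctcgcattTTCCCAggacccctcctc
Hes5, chr4:154960829-154960858, plus strand: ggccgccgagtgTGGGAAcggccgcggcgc
Hes5, chr4:154960685-154960714, plus strand: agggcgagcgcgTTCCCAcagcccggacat
Hes7, chr11:69120261-69120290, plus strand: tcctcccctcacTTCCCAcatttggggcta
Hey2, chr10:30842973-30843002, minus strand: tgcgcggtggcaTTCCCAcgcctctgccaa
The Rbpj sites begin 149 and 65 bases before the more upstream of the Rbpj starts that had a window. Those starts lie within the gene span given above, and no window at the first base of that span was searched. Another window, of a start further along the gene, holds only the TTCCCA site, 205 bases before that start. Both Rbpj sites lack the G that completes the longer form. The Hes5, Hes7 and Hey2 sites have it, as does another Hey2 site, not printed, that begins 3 bases before the start. Transcripts of those genes were few or not listed: Hes5 was listed in neither table, Hes7 had 0 reads in the normal library and 2 in the LLC library, and Hey2 had 3 and 4.

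The other Hes and Hey genes add a gene with a larger difference than any member. Hes2, a repressor of the same family, was at 9.22 RPKM with 124 reads in the normal library and had 0 reads in the LLC library. Against a floor of 3 reads it was 41.7-fold lower, which leaves out the counting error of the normal library. The counting interval of its ratio, LLC over normal, ended at 0.0299, which allows a smaller difference than 41.7-fold. Hes6, a family member known to oppose Hes1, was at 19.7 and 12.0 RPKM, from 140 and 86 reads, a ratio of 0.608 (0.460 to 0.801). Heyl had 21 and 13 reads, with an interval that includes equal levels, and Hes3 was listed in neither table. Hes1 was thus the most abundant gene of the Hes and Hey families in both libraries.

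**Figure D3:**
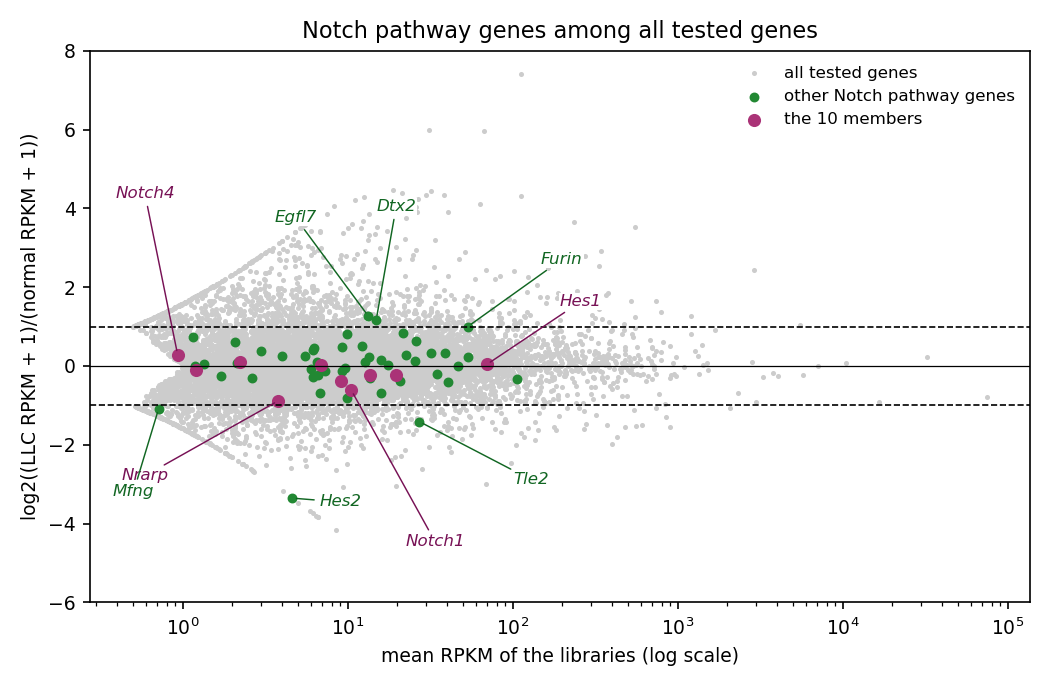
Log2((LLC RPKM + 1)/(normal RPKM + 1)) against mean RPKM (log axis) for all 12288 tested genes (grey), the 10 members (purple) and other Notch pathway genes (green); dashed lines mark 2-fold. The members lie between -0.88 and 0.29, and Hes2 lies at -3.35.

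Outside the members, 59 further genes of the pathway were read in 8 lists by step. Of these, 48 were at 1 RPKM or more in a library, with 3 past 2-fold upward (Egfl7, Furin and Dtx2), 3 downward (Hes2, Tle2 and Mfng) and 42 within 2-fold. The median log2 ratio was 0.08, against 0.06 over all tested genes. Over all tested genes, 15.9% were past 2-fold in either direction, a larger share than the 3 and 3 of 48 here.

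Genes that process the receptor were mostly above 0. Of 9 tested cleavage genes, 7 had a log2 ratio above 0, where 53.8% of all tested genes did, and the median was 0.34. Furin, which cuts the receptor on its way to the surface and has many other substrates, was at 35.3 and 71.7 RPKM, a ratio of 2.03 (1.87 to 2.21), and came within 2-fold under the 3 other scalings. Adam10, the protease of ligand-triggered cleavage, and Aph1a, a gamma-secretase subunit, were singled out after their values were seen, with ratios of 1.58 (1.41 to 1.78) and 1.84 (1.58 to 2.15). Psenen, the most abundant gamma-secretase subunit gene, was at 119 and 94.2 RPKM, a ratio of 0.792 (0.685 to 0.916). The receptor genes Notch1 and Notch2 were lower in the library in which Furin and Adam10 were higher and Psenen was lower. A link between these values was not tested.

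Receptor glycosylation was read from 5 genes, whose median log2 ratio was -0.30. Rfng, a fringe gene and the most abundant of them, was at 15.2 and 12.1 RPKM, and its interval of 0.633 to 1.00 reached equal levels. Mfng, another fringe gene, had 13 reads in the normal library and 1 in the LLC library, 13.1-fold lower with an interval of 1.97 to 558. Fringe proteins modify the receptor so that it responds differently to Delta-like and Jagged ligands.

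Genes of receptor turnover had a median of 0.35 over 8 tested genes, with 7 above 0, where 53.8% of all tested genes were. The counting interval lay wholly above equal levels for 4 of the 8, where it did for 33.1% of tested genes with recovered reads. Dtx2, a Deltex ubiquitin ligase, was at 8.74 and 21.0 RPKM, a ratio of 2.40 (1.94 to 2.99). Dtx3, the most abundant of this list, was at 28.2 and 35.4 RPKM. The 3 tested ubiquitin ligases of the ligands had a median of -0.08, and Mib2, the most abundant, was at 6.86 and 5.45 RPKM, with an interval that includes equal levels.

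The partners of RBPJ in the nucleus were divided. Co-activators had a median of 0.09 over 7 genes, all within 2-fold, and Snw1, the most abundant, was at 49.0 and 57.7 RPKM. Of the 3 Mastermind genes, singled out after their values were seen, Maml1 had a ratio of 1.86 (1.57 to 2.22) and Maml3 a ratio of 0.539 (0.460 to 0.632). Maml2 had a ratio of 0.757, with an interval of 0.517 to 1.10 that includes equal levels. Of 10 co-repressor genes, 9 were below 0, where 46.2% of all tested genes were, and their median was -0.17. Tle2, a Groucho-type co-repressor that Hes proteins recruit, was at 39.9 and 14.4 RPKM, a ratio of 0.361 (0.309 to 0.420). Hdac1, the most abundant, was at 46.6 and 46.4 RPKM.

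Egfl7, a secreted modulator of Notch made by endothelium, was at 7.42 and 19.2 RPKM, a ratio of 2.59 (1.89 to 3.61). Most endothelial markers were higher in the same library, as given beside Notch4, and their part in the Egfl7 value was not tested. Dlk2, a non-canonical ligand, had 5 and 14 reads, and its interval spanned equal levels. Dlk1 and Dner had fewer than 1 RPKM in both libraries.

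**Figure D4:**
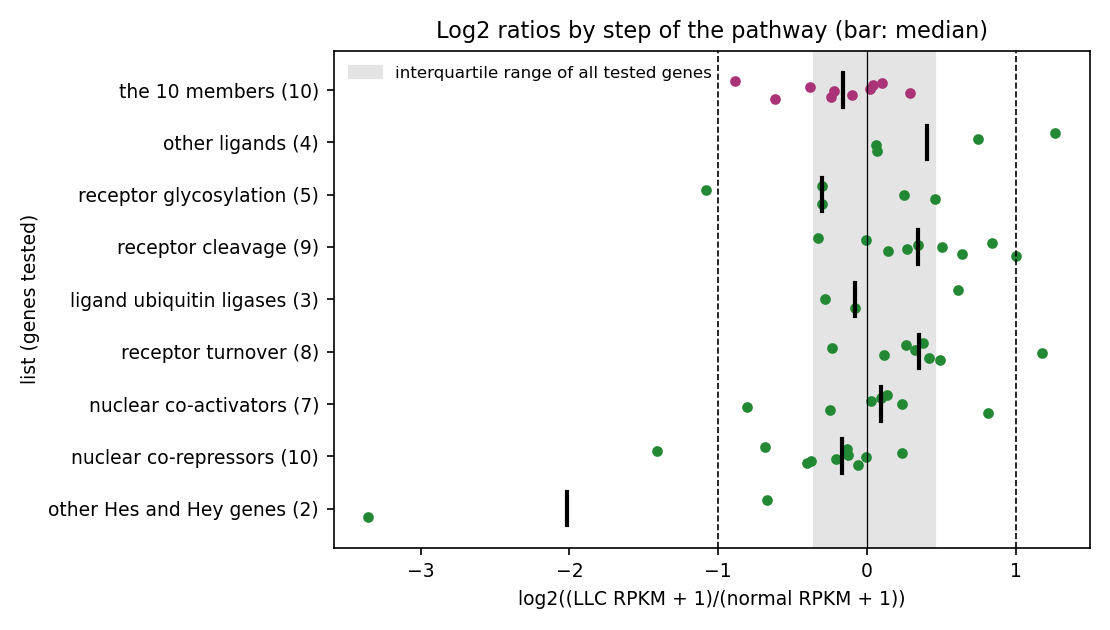
Log2((LLC RPKM + 1)/(normal RPKM + 1)) of tested genes by step of the pathway, with the number tested in parentheses; points are genes, black bars are medians, the grey band is the interquartile range of all tested genes and dashed lines mark 2-fold. The median of the 10 members, -0.16, lies inside the grey band, which runs from -0.36 to 0.45.

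Markers of the cell fates that Notch is known to steer were read beside the members. Of the neuroendocrine markers, Chga was at 0 in the normal library and Insm1 at 0 in the LLC library, with 5 and 1 reads in the other. Calca was higher in the LLC library, from 1 and 21 reads, a ratio of 20.8 with an interval of 3.34 to 860. Syp was lower, at 2.64 and 0.299 RPKM from 35 and 4 reads, by 8.83-fold (3.16 to 34.2). The 8 ciliated markers were all within 2-fold, where 15.9% of all tested genes were past it, with a median of -0.36. The 7 club cell markers had a median of -0.76, with 1 past 2-fold upward and 2 downward. Over all tested genes these shares were 9.38% and 6.53%. The summed level of the club cell markers was 1.13 times that of the normal library. The most abundant of them, Scgb1a1, was at 30142 and 35116 RPKM, which makes up most of that sum.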

How the data were processed

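RNA from sorted lung cells was sequenced in 1 library per group. The authors deposited 1 table per library with RPKM, per the file headers. Genes without reads are not listed and were taken as 0. Per the submitters' processing notes, Trimmomatic and mm10 were used. The sources used here do not give the aligner, counter, gene annotation or strand setting.

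Groups were taken from the treatment label. RPKM was used as deposited, where Sftpc alone made up 18.6% (normal) and 11.2% (LLC) of the summed values, as log2 ratios with a pseudocount of 1, for genes at 1 RPKM or more in a library. Whole reads were recovered for 15091 of 15113 genes (99.9%): RPKM of the last 60 rows, taken as 1 read each, fixed the library totals, and lengths had to be whole within 0.02 base, widened for the rounding of the printed RPKM, and shared by both libraries. GENCODE M21 lengths and row order settled multiples. The totals are estimates, and 11 of 28169 neighbouring rows were out of order. The recovered reads added up to 81.2% (normal) and 85.3% (LLC) of the totals. Sftpc, Sftpa1 and Sftpd, among the most abundant genes, were not recovered. For other highly abundant genes the multiple may be too small and the reads undercounted. The length came out at 156 bases for Scgb1a1 and 418 bases for Sftpb. Recovered reads gave exact conditional binomial intervals of ratios and exact Poisson intervals of levels. Reads are not independent molecules. The procedure was tested on simulated data.

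Named genes were all members, other pathway genes past 2-fold, the most abundant gene of each list, the Delta-like, Hes and Hey families, and up to 3 markers per list, with further markers named after their values were seen; the summed neuroendocrine markers are not reported here. The members and lists were chosen with earlier results of these data known. Current symbols and coordinates came from RefSeq for GRCm38.p6, the assembly of mm10, by GeneID for 15080 genes. Alternatives were pseudocounts, scalings, low-value filters, fold thresholds and recovered reads. Python 3.11.15 with scipy 1.17.1 was used.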

Additional observations from a re-analysis of the deposited data

How the results depend on the processing

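No paired analysis was possible because each group held 1 library, and no library could be left out. The median log2 ratio of the members stayed below 0 under 6 alternatives, between -0.24 and -0.10. The number of members at least 2-fold higher was 0 under all 10 alternatives. The number at least 2-fold lower was 0, but 1 (Nrarp) with a pseudocount of 0.1 and on recovered reads with 0.5 added, and 2 (Nrarp and Notch1) with a 1.5-fold rule. The log2 ratio of Nrarp ran from -1.13 to -0.47 and that of Notch1 from -0.71 to -0.45. Of the members, 8 kept their sign under all 6 alternatives for single genes, and Hes1 and Jag2 turned under 3, the scalings.

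Of the other pathway genes, the number higher was 0 with a pseudocount of 5, 8 with a 1.5-fold rule and 0 with a 4-fold rule, and the number lower was 6 and 1 with these rules. Over all genes, 1153 were higher and 802 lower. With a pseudocount of 5 these were 370 and 190, with a filter at 5 RPKM 687 and 419, with a 1.5-fold rule 2383 and 1978, and with a 4-fold rule 204 and 75. The number lower was 1247 with a pseudocount of 0.1 and 1282 on recovered reads. A larger pseudocount, a stricter filter and a larger threshold each lower a count by construction. Trimmed-mean, upper-quartile and median scaling shifted log2 ratios by 0.05, 0.10 and 0.06. With 25 to 72 reads in the control library, Hey1, Notch4, Notch3 and Nrarp are the members least well resolved.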
